A study of Mus musculus with 2 samples.

Results

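Camk2a, Ddn, Map2, Shank1, Dlg4, Psd and Bc1 encode RNAs long known to be carried out of the neuronal cell body and into dendrites. The 7 genes were taken by name, not by a threshold on the measured values, and all 7 were found among the 32285 genes of the tables. They lie on chromosomes 18 (Camk2a), 15 (Ddn), 1 (Map2), 7 (Shank1 and Bc1), 11 (Dlg4) and 19 (Psd). For each of 2 mice, 1 coronal section was placed on a 10x Visium slide, whose spots capture polyadenylated RNA at known positions and count molecules by unique molecular identifiers (UMIs). Mouse 1 is labelled WT:C57BL/6J control and mouse 2 is labelled WT:CRISPR-Cas9 edited isogenic control. Both expressed hM3Dq, an engineered receptor that is activated by the drug CNO, and both were given CNO, so that they form 1 group of 2 and no untreated section was analysed here. Sections were 10 µm thick and lay 1.9 mm behind bregma, in front of the injection site at 4.6 mm. Neither the promoter of hM3Dq nor the age of the mice is stated in the labels. Each mouse gave 1 section, so that n is 2 throughout.

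The section of mouse 1 held 3712 spots of at least 500 UMIs and 30671753 UMIs, and that of mouse 2 held 3548 spots and 55315952 UMIs. Median depth was 7547 and 14663 UMIs per spot. The sections shared 3369 spot barcodes, which are array positions rather than shared cells. The 7 transcripts together took 0.087% of all UMIs in mouse 1 and 0.181% in mouse 2. Most of that gap lay in Bc1, which had 8827 UMIs in mouse 1 and 60809 in mouse 2. The other 6 had between 1095 UMIs (Dlg4) and 5699 (Map2) in mouse 1 and between 2846 (Dlg4) and 12264 (Map2) in mouse 2. Genotype label and animal cannot be told apart, so differences between the mice were not tested.

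The hippocampus packs its neuronal cell bodies into thin bands, the pyramidal layers of CA1, CA2 and CA3 and the granule layer of the dentate gyrus. The dendrites of these neurons fill the space between the bands, together with axons, glia and vessels, and this tissue is called neuropil. RNA granules move along dendritic microtubules on kinesin motors, and the mRNAs they carry can be translated close to synapses. A section through the dorsal hippocampus therefore separates RNA in dendrites from RNA in cell bodies by place. A Visium spot covers several cells and processes, so each level is that of a small piece of tissue and not of a dendrite.

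Regions were found by clustering the spots of both sections on other genes, since the 7 transcripts and 73 genes related to them were left out of the clustering. Hippocampal neuropil was the cluster led by Ddn, Psd, Sowaha and Camk2a, with 403 spots in mouse 1 and 350 in mouse 2. Among its 100 leading genes were 7 of its 8 marker genes. Some of these markers, such as Itpka and Icam5, are themselves known from dendrites. The same 100 genes held 5 of the 6 CA1 markers, so the neuropil class was not cleanly separated from CA1. In a finer clustering (Leiden resolution 2) a cluster of 321 spots led by Ddn, Psd and Itpka was named CA1 layer. There 410 spots were named neuropil. The CA layers joined the Spink8-Hpca cluster, with all 6 CA1 markers and 57 and 91 spots, and the Hpca-Neurod6 cluster, with 5 of 8 CA2 and CA3 markers and 121 and 110 spots. Among the 10 leading genes of the Hpca-Neurod6 cluster were 2 neuropil markers and 1 of its own set, and among those of the Spink8-Hpca cluster there were 3 of each, so the CA class was not cleanly separated from neuropil and its clusters are also given one by one. The dentate granule layer was the C1ql2-Rasl10a cluster, with 7 of 7 markers and 56 and 76 spots. Neocortex (603 and 430 spots) joined 2 clusters and thalamus (1062 and 1082 spots) joined 5.

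**Figure D1:**
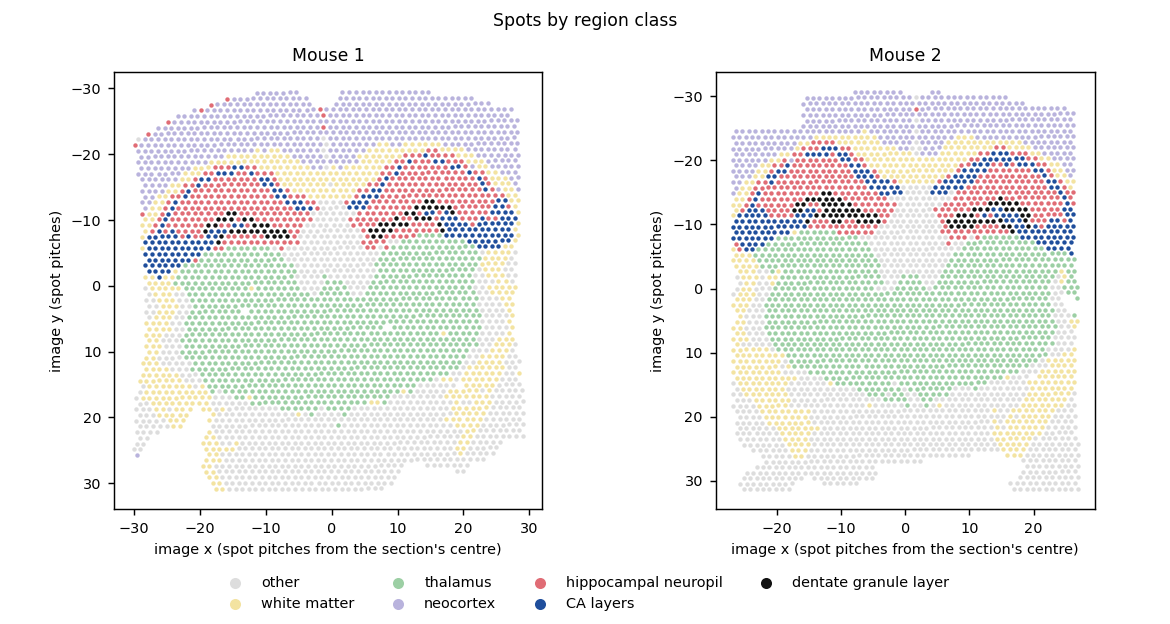
Spots of both sections by region class, at their image position in spot pitches (1 pitch is the distance between neighbouring spot centres). Neuropil spots fill the space between the CA layers and the dentate granule layer on both image sides; 9 spots in mouse 1 and 1 in mouse 2 classed as neuropil lay over 6 pitches from any cell layer, at the cortical surface.

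Neuropil spots gave fewer UMIs than cell layer spots. The median was 4718 UMIs per neuropil spot in mouse 1 and 10754.5 in mouse 2, against 8032 and 17981 in the cell layers, and the mean was 0.584 and 0.585 of that of the cell layers. For this reason each transcript is given on 2 scales. CPM is a gene's share of all UMIs of a region, scaled to 1000000 UMIs, and UMIs per spot are its amount under 1 spot. In such samples fewer cells and less RNA per cell cannot be told apart. UMIs come from the 3′ ends of RNAs, so levels are compared between regions and not between genes.

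All 7 transcripts took a larger share of UMIs in hippocampal neuropil than in the cell layers, in both mice. Of 13371 genes tested, 28.2% differed and 15.8% were higher in neuropil by the same test (edgeR's quasi-likelihood test with the mouse as a block, adjusted p under 0.05 over all genes). Fitted log2 differences of the 7 ran from 0.38 (Dlg4) to 1.08 (Bc1), with a median of 0.77 against 0.02 for all genes tested. The cell layers stand here for the mean of CA and dentate layers on the log2 scale.

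Camk2a encodes the alpha subunit of the calcium and calmodulin-dependent kinase of the synapse, and its mRNA is the classical dendritic message. It took 475 CPM of neuropil in mouse 1 and 517 CPM in mouse 2, against 388 and 380 CPM in the cell layers. Both neuropil values lay above both cell layer values, and the fitted log2 difference was 0.60 ± 0.08 (SE, n = 2 mice; edgeR adjusted p = 2.66e-08). The share of all genes whose values separate in this way is not given here. Such separation, here and below, is therefore a description only, and it leaves out that regions of 1 section are paired. Map2 encodes a microtubule-associated protein of dendrites and cell bodies. Its share was 368 CPM and 432 CPM in neuropil and 239 CPM and 311 CPM in the cell layers. Groups did not overlap here either, and the log2 difference was 0.77 ± 0.08 (edgeR adjusted p = 4.92e-11).

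Dlg4 and Shank1 encode PSD-95 and a SHANK protein, scaffolds of the postsynaptic density that tie glutamate receptors to the cytoskeleton. Shank1 took 111 CPM and 112 CPM of neuropil and 65.4 CPM and 81.4 CPM of the cell layers. The 2 mice agreed closely in neuropil and less so in the layers, and the log2 difference was 0.94 ± 0.11 (edgeR adjusted p = 1.3e-09). Dlg4 had 48.1 CPM and 70.4 CPM in neuropil against 44.0 CPM and 59.5 CPM in the cell layers. Here the mice differed by more than the regions did, and only the difference within each mouse went one way. Neuropil CPM was 1.09 times that of the cell layers in mouse 1 and 1.18 times in mouse 2. The fitted log2 differences within each mouse, 0.26 and 0.41, are larger than these plain ratios give. The fit gave 0.38 ± 0.12 (edgeR adjusted p = 0.012), a call that was lost under 9 of 14 alternative settings, DESeq2 and plain library totals among them.

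Ddn encodes dendrin, a proline-rich postsynaptic protein, and Psd encodes an exchange factor for the GTPase Arf6 that is rich in dendritic spines. Ddn had 375 CPM and 478 CPM in neuropil and 209 CPM and 299 CPM in the cell layers, a log2 difference of 0.88 ± 0.09 (edgeR adjusted p = 3.28e-12). Psd had 323 CPM and 381 CPM in neuropil and 218 CPM and 273 CPM in the cell layers, a log2 difference of 0.73 ± 0.08 (edgeR adjusted p = 1.97e-10). For both genes each neuropil value exceeded each cell layer value.

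Bc1 is a short non-coding RNA of rodents, made by RNA polymerase III, that is carried into dendrites and represses translation. Its gene lies in mm10 at chr7:144914470-144914623 on the forward strand, is 154 bases long and is annotated by RefSeq as a long non-coding RNA. The start of Bc1 is shown because, unlike the mRNAs, it is made by RNA polymerase III. Promoters of this polymerase can have elements within the RNA itself. The line gives 250 bases before the start in lower case and the first 50 transcribed bases in capitals (RefSeq, GRCm38.p6, chr7:144914220-144914519, forward strand).

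Bc1: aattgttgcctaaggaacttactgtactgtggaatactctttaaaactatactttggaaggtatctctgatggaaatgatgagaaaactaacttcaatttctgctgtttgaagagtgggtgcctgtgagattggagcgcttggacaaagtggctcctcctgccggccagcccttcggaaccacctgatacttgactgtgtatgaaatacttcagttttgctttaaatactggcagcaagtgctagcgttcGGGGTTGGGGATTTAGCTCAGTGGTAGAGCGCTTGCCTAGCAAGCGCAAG

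Both strands were searched with a single form of the A box, an internal element of polymerase III promoters, in which some letters were left open. This pattern matched once here, as TAGCTCAGTGG at bases 14 to 24 of the RNA. The same pattern was present in 295 of 32851 RefSeq promoter windows of the length shown above (0.898%). That percentage does not cover other forms of the A box. A match is a likeness of letters only. RefSeq also lists a Bc1 pseudogene, and near-identical copies could share or split reads. The spots capture polyadenylated RNA, and how Bc1, a polymerase III RNA, came to be captured was not tested. Bc1 counts are therefore less certain than those of the other members. Bc1 had 232 CPM and 1160 CPM in neuropil against 149 CPM and 638 CPM in the cell layers. Both values of mouse 2 exceeded both values of mouse 1, yet neuropil CPM was 1.56 times that of the cell layers in mouse 1 and 1.82 times in mouse 2. The fitted log2 difference was 0.86 within mouse 1 and 1.16 within mouse 2, and the fit of both mice gave 1.08 ± 0.11 (edgeR adjusted p = 2.91e-11). Without the mouse as a block the difference was 1.06 and did not pass (edgeR adjusted p = 0.363).

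**Figure D2:**
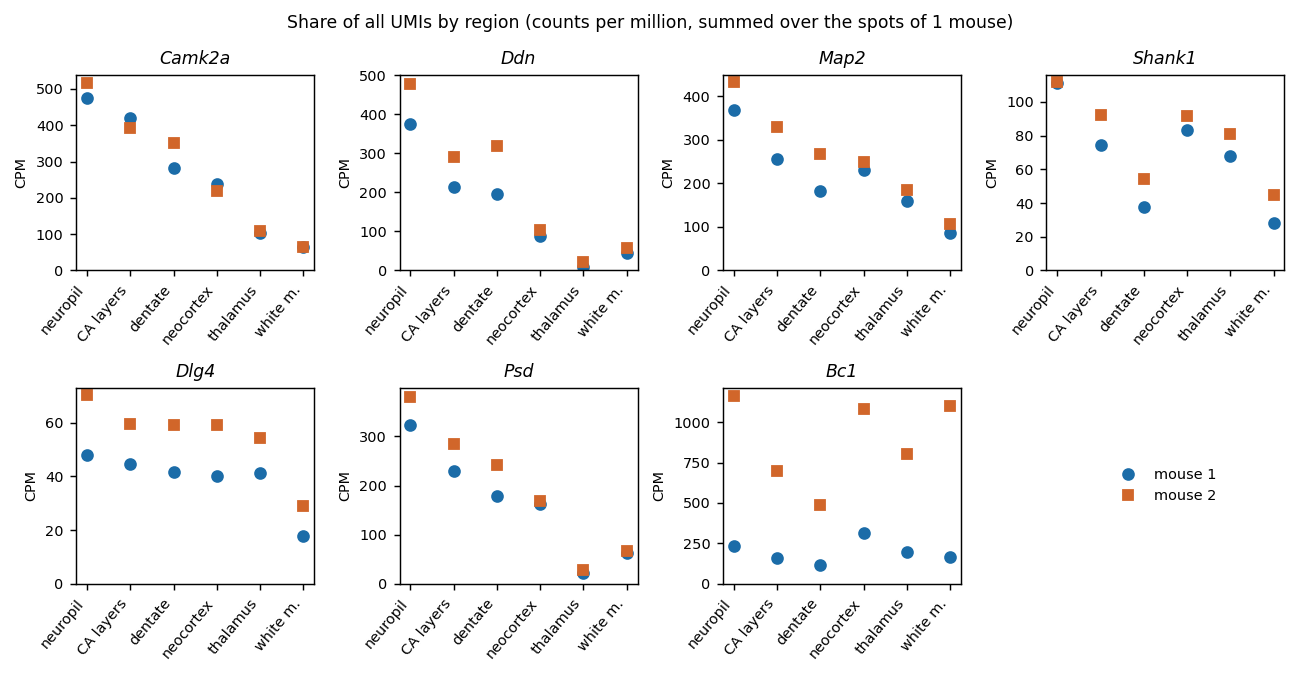
Share of UMIs (CPM, linear axes from 0) of each transcript by region, 1 point per mouse. For Camk2a, Ddn, Map2, Shank1 and Psd both neuropil points lie above both points of the CA and dentate layers, whereas for Dlg4 and Bc1 the regions overlap because mouse 2 lies above mouse 1.

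Counted per spot, no transcript was higher in neuropil. Dlg4 fell from 0.376 and 1.12 UMIs per spot in the cell layers to 0.241 and 0.777 in neuropil, a log2 difference of -0.58 ± 0.19 (edgeR adjusted p = 0.00339). Camk2a fell from 3.32 and 7.15 to 2.37 and 5.71 UMIs per spot, a log2 difference of -0.33 ± 0.13 (edgeR adjusted p = 0.0213). The amounts of the other 5 under a spot did not pass the test in either direction. Ddn had 1.88 and 5.27 UMIs per neuropil spot against 1.79 and 5.62, with a 95% interval of the log2 difference from -0.31 to 0.23. Shank1 had 0.553 and 1.24 against 0.560 and 1.53, with an interval from -0.31 to 0.36.

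These small differences stood against a general drop. On the per-spot scale 69.3% of the 13371 genes differed, 68.2% being lower in neuropil and 1.1% higher, and the median gene lay at -0.92. The members' median was -0.16. Map2 had 1.84 and 4.77 UMIs per neuropil spot against 2.04 and 5.85, Psd had 1.61 and 4.21 against 1.86 and 5.13, and Bc1 had 1.16 and 12.8 against 1.27 and 12.0. The log2 differences of these 3 were -0.16 ± 0.14 for Map2, -0.20 ± 0.14 for Psd and 0.11 ± 0.13 for Bc1.

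**Figure D3:**
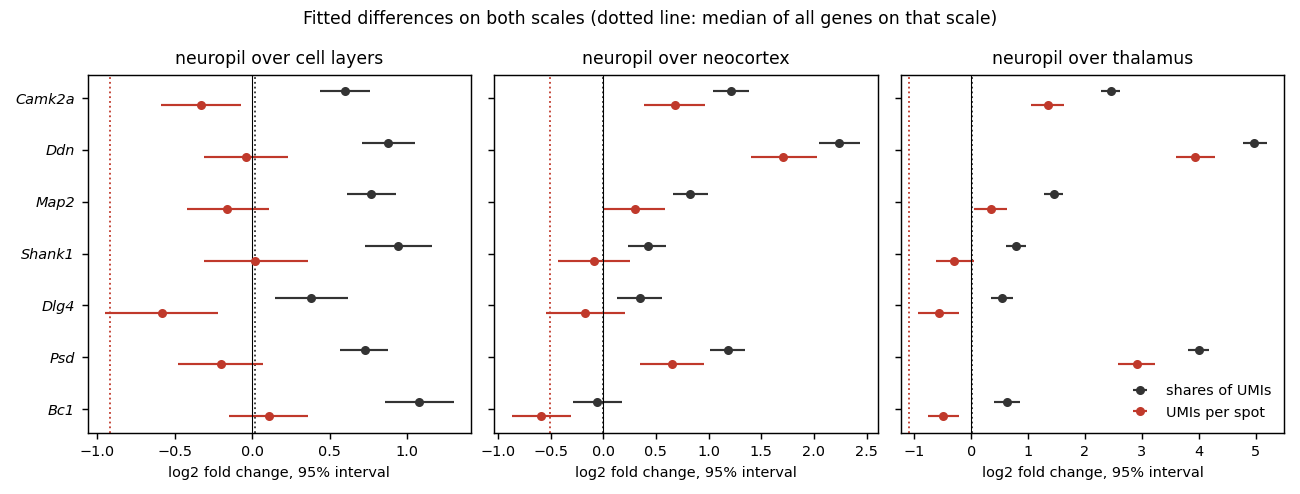
Fitted log2 differences with 95% intervals for neuropil over cell layers, neocortex and thalamus, in black for shares of UMIs and in red for UMIs per spot. Dotted lines mark the median of all genes tested on each scale, which for cell layers lies at 0.02 and -0.92.

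Neuronal transcripts known mainly from cell bodies were more often lower than higher in neuropil. Of 12 such genes 5 were lower on the scale of shares, 2 were higher and 5 did not pass, with a median log2 difference of -0.12. Uchl1, a ubiquitin hydrolase of neurons, had 564 CPM and 574 CPM in neuropil against 1340 and 1080 CPM in the CA layers, and its log2 difference from the cell layers was -0.70 ± 0.10 (edgeR adjusted p = 1.33e-07). Nefl, the light neurofilament, differed by -0.64 ± 0.09 (adjusted p = 1.16e-07) and Camk2b, the beta subunit of the kinase, by -0.59 ± 0.09 (adjusted p = 5.17e-07). Set against the summed UMIs of these 12 genes, each of the 7 transcripts was 1.62 to 2.70 times as frequent in neuropil as in the cell layers. Dlg4 marked the low end, with 1.62 in mouse 1 and 1.76 in mouse 2. Bc1 and Ddn marked the high end, with 2.70 in mouse 2 and 2.67 in mouse 1. The list's lower sum in neuropil (4450 and 4740 CPM) than in the cell layers (6610 and 7050 CPM) raises each ratio. In the dentate granule layer alone the sum was 4250 and 5180 CPM. The list was chosen with earlier results of these data known, so the ratios are a description only.

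Markers of glia and vessels moved with the comparison in the same direction as the 7 transcripts. All 10 astrocyte markers were higher in neuropil, with a median log2 difference of 1.40, and their summed share was 3560 and 4150 CPM in neuropil against 1700 and 1960 CPM in the cell layers. All 8 oligodendrocyte markers (median 1.04), 5 of 6 microglial markers (0.96), 5 of 6 endothelial and blood markers (1.07) and 4 of 6 markers of inhibitory neurons (0.43) were higher too. Aqp4, the water channel of astrocyte endfeet, differed by 1.77 ± 0.11 (adjusted p = 1.35e-18). Per spot, 7 of the 10 astrocyte markers were higher in neuropil, with a median of 0.45. Their part in the shares of the 7 transcripts was not tested. The share of mitochondrial UMIs moved the same way, at 12.9% and 17.5% in neuropil against 8.4% and 10.6% in the cell layers. With the 13 mitochondrial genes left out all 7 transcripts were still called higher, where 2049 of 13327 genes were.

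Other transcripts reported in dendrites went both ways. Of 20 such genes 10 were higher in neuropil, 2 were lower and 8 did not pass, with a median log2 difference of 0.23. Homer2, a postsynaptic adaptor, was higher by 1.01 ± 0.16 (adjusted p = 1.01e-06). The 2 lower genes were Bdnf, a neurotrophin, at -1.37 ± 0.15 (adjusted p = 8.43e-11) and Nrgn, which encodes the calmodulin-binding protein neurogranin, at -1.19 ± 0.11 (adjusted p = 7.13e-13). Nrgn took 1290 and 1270 CPM of neuropil but 3150 and 2790 CPM of the CA layers.

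Genes for proteins of the excitatory postsynaptic density were more often lower than higher. Of 16 tested, 6 were lower in neuropil and 1 was higher, with a median of -0.21. Homer3 differed by -1.27 ± 0.19 (adjusted p = 4.76e-07) and Baiap2, an adaptor of actin in spines, by -0.79 ± 0.08 (adjusted p = 6.63e-11). Of 14 paralogs of the members 5 were higher and 3 lower. Psd2 was higher by 1.28 ± 0.21 (adjusted p = 3.49e-06), and Map1b, another microtubule-associated protein, was lower (log2 difference -0.48 ± 0.09, adjusted p = 2.81e-05). Among 17 factors of RNA transport and local translation 4 were higher and 1 lower. Kif5a, a kinesin heavy chain, was higher by 0.86 ± 0.09 (adjusted p = 6.33e-11), and Cpeb1, which binds cytoplasmic polyadenylation elements, was lower (log2 difference -0.71 ± 0.15, adjusted p = 0.000223).

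The CA and dentate layers were then taken apart. Against the CA layers all 7 transcripts were higher in neuropil, where 25.8% of genes differed and 13.8% were higher. Ddn differed most, by 0.92 ± 0.10 (edgeR adjusted p = 3.96e-11), followed by Bc1 (0.83 ± 0.13), Map2 and Psd (0.60 ± 0.09 each), Shank1 (0.55 ± 0.11), Camk2a (0.45 ± 0.09) and Dlg4 (0.37 ± 0.12, adjusted p = 0.0219). Of the 12 cell-body transcripts 10 were lower and 2 did not pass. Per spot, where 66.4% of genes differed, 65.5% being lower and 0.972% higher, Dlg4 (-0.57 ± 0.20) and Camk2a (-0.47 ± 0.15) were lower in neuropil and the other 5 did not pass. The calls for Camk2a, Shank1, Dlg4 and Psd depended on where the border was drawn. With neuropil defined by position alone (spots within 4 pitches of both a CA and a dentate spot) their differences were 0.21, 0.26, 0.17 and 0.18 and 3 transcripts passed, and with each section clustered alone 4 did. Of all genes 2104 of 13368 were higher by position and 1654 of 13757 with each section clustered alone.

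The clusters of the CA class differed from each other. Ddn had 296 and 393 CPM in the Spink8-Hpca cluster and 158 and 196 CPM in the Hpca-Neurod6 cluster, and Psd had 251 and 354 CPM and 216 and 222 CPM. In each mouse both genes were higher in the first. Camk2a ran the other way in mouse 1, at 376 and 449 CPM, and was alike in mouse 2, at 391 and 393 CPM. Map2 had 235 and 340 CPM in the first cluster and 270 and 320 CPM in the second, and Shank1 71.6 and 104 CPM and 76.0 and 81.0 CPM. All of these lay below the neuropil value of the same mouse, as did Dlg4 (40.0 and 66.7, then 47.8 and 53.1 CPM) and Bc1 (135 and 641, then 174 and 750 CPM).

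Against the dentate granule layer 6 transcripts were higher, where 24.6% of genes differed and 12.7% were higher. Shank1 showed the widest gap, with 37.5 CPM and 54.5 CPM in the granule layer against 111 and 112 in neuropil, a log2 difference of 1.34 ± 0.16 (edgeR adjusted p = 2.56e-09). Its granule layer values rest on 18 and 81 UMIs. Bc1 differed by 1.33 ± 0.15, Map2 by 0.93 ± 0.11, Psd by 0.85 ± 0.11, Ddn by 0.84 ± 0.11 and Camk2a by 0.75 ± 0.10. Dlg4 did not pass (0.40 ± 0.16, adjusted p = 0.0683), at 41.7 and 59.2 CPM in the granule layer. Per spot, where 58.3% of genes differed and 57.3% were lower, Dlg4 was lower in neuropil (-0.59 ± 0.24, adjusted p = 0.0254) and the other 6 did not pass. Of the 12 cell-body transcripts 5 were higher and 5 lower than in the granule layer, with a median of 0.19 against 0.05 for all genes, and of the 16 postsynaptic density genes 3 were higher and 4 lower, with a median of 0.14. Whether the CA and dentate differences of a gene differ from each other was not tested.

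Compared with neocortex, 6 of the 7 took a larger share of neuropil, where 26.2% of genes differed and 14.4% were higher. Ddn had 88.0 CPM and 103 CPM in neocortex, less than in any hippocampal class, and neuropil was higher by 2.24 ± 0.10 (edgeR adjusted p = 1.05e-25), a 4.74-fold difference. Camk2a had 239 and 219 CPM in neocortex, a difference of 1.21 ± 0.09 (adjusted p = 1.28e-16), and Psd had 162 and 168 CPM, a difference of 1.18 ± 0.09 (adjusted p = 1.28e-16). For these 3 genes, and also for Map2 and Shank1, both neuropil shares exceeded both neocortex shares.

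Map2, at 231 and 248 CPM in neocortex, differed by 0.82 ± 0.09 (adjusted p = 2.52e-11), Shank1, at 83.2 and 91.7 CPM, by 0.42 ± 0.10 (adjusted p = 0.000635) and Dlg4, at 40.0 and 59.0 CPM, by 0.35 ± 0.11 (adjusted p = 0.0141). Bc1 did not pass. It had 312 and 1080 CPM in neocortex against 232 and 1160 CPM in neuropil, lower in neuropil in mouse 1 and higher in mouse 2, with a fitted difference of -0.06 ± 0.12 (adjusted p = 0.787). Per spot, where 3.89% of genes were higher in neuropil and 45.0% were lower, Ddn (1.71 ± 0.16), Camk2a (0.68 ± 0.15) and Psd (0.65 ± 0.15) were higher, Bc1 was lower (-0.59 ± 0.14) and Map2, Shank1 and Dlg4 did not pass. The calls of Shank1 and Dlg4 against neocortex were kept in 8 and 6 of 14 alternatives. Both were lost with neuropil by position (0.12 and 0.15), regions by marker share (0.20 and 0.28), sections clustered alone (0.25 and 0.31), counts per spot and no block (0.43 and 0.36). Shank1 was also lost at Leiden resolution 2 (0.19), and Dlg4 with DESeq2 (0.34), library totals alone (0.26) and thinned spots (0.25).

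All 7 transcripts took a smaller share of thalamus than of neuropil. Of all genes 44.9% differed, 23.8% being higher in neuropil and 21.1% lower. Ddn had 10.0 CPM and 20.4 CPM in thalamus, from 105 and 421 UMIs over more than 1000 spots in each mouse, and neuropil was higher by 4.98 ± 0.11 on the log2 scale (edgeR adjusted p = 2.25e-40), or 31.6-fold. Psd had 22.4 and 28.7 CPM, a difference of 4.0 ± 0.09 (adjusted p = 5.07e-39), and Camk2a 103 and 110 CPM, a difference of 2.45 ± 0.09 (adjusted p = 6.23e-31). For these 3 genes, and also for Map2 and Shank1, both thalamic shares lay below both neuropil shares.

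Map2 had 159 and 185 CPM in thalamus (neuropil higher by 1.45 ± 0.08, adjusted p = 1e-21), Shank1 67.6 and 81.0 CPM (0.78 ± 0.09, adjusted p = 6.7e-11), Bc1 197 and 805 CPM (0.63 ± 0.12, adjusted p = 1.04e-05) and Dlg4 41.2 and 54.5 CPM (0.54 ± 0.10, adjusted p = 8.13e-06). Thalamic spots were deeper, so that a neuropil spot gave 0.507 and 0.576 of their mean UMIs. Per spot, where 82.1% of genes differed, 4.91% being higher in neuropil and 77.2% lower, Ddn (3.94 ± 0.18), Psd (2.91 ± 0.17), Camk2a (1.34 ± 0.15) and Map2 (0.34 ± 0.15) were higher. Bc1 (-0.49 ± 0.14) and Dlg4 (-0.57 ± 0.18) were lower, and Shank1 did not pass (-0.30 ± 0.17, adjusted p = 0.094).

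Neocortex and thalamus were also compared with each other. In neocortex 6 of the 7 took a larger share, where 48.9% of genes differed and 24.8% were higher, with Psd higher by 2.81 ± 0.09 (edgeR adjusted p = 1.4e-32) and Ddn by 2.74 ± 0.12 (adjusted p = 7.48e-28). Camk2a followed at 1.24 ± 0.09, Bc1 at 0.68 ± 0.11, Map2 at 0.62 ± 0.08 and Shank1 at 0.37 ± 0.08. Dlg4 had 40.0 and 59.0 CPM in neocortex and 41.2 and 54.5 in thalamus and did not pass (0.20 ± 0.09, 95% interval 0.02 to 0.37, adjusted p = 0.0599). Per spot, where 66.5% of genes differed, 7.21% being higher in neocortex and 59.3% lower, Psd, Ddn and Camk2a were higher, by 2.25 ± 0.16, 2.23 ± 0.17 and 0.66 ± 0.15, and Dlg4 was lower (-0.40 ± 0.18, adjusted p = 0.0375).

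Among the genes of the other lists, the split between neuropil and thalamus was wide for several postsynaptic genes. Of the 20 other dendritic transcripts 14 were higher in neuropil than in thalamus and 3 lower, and of the 16 postsynaptic density genes 10 were higher and 3 lower. Nrgn, lower in neuropil than in the cell layers, was 4.37 ± 0.14 higher than in thalamus (adjusted p = 2.05e-33), where it had 56.4 and 86.0 CPM. Baiap2 was higher by 4.21 ± 0.12 (adjusted p = 4.44e-36) and Gria1, an AMPA receptor subunit, by 1.94 ± 0.09 (adjusted p = 4.25e-25). The cell-body transcripts ran the other way, with 10 of 12 lower in neuropil than in thalamus, Nefm at -1.44 ± 0.10 (adjusted p = 5.53e-19) and Tubb3 at -1.29 ± 0.09 (adjusted p = 1.99e-18). Camk2d, a further subunit of the kinase, was lower in neuropil too (-2.03 ± 0.12, adjusted p = 1.58e-20), opposite to Camk2a.

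The order of the regions was not the same for each transcript. Ddn and Psd had their lowest shares in thalamus, below white matter, where Ddn had 44.7 and 56.3 CPM and Psd 63.5 and 67.0 CPM. Camk2a and Map2 were lowest in white matter, at 63.8 and 64.7 CPM for Camk2a and 86.0 and 107 CPM for Map2. Several neighbours in these orders overlapped when the values of both mice were set side by side, which leaves out that regions of 1 section are paired. Ddn in the CA layers (213 and 291 CPM) overlapped with Ddn in the dentate layer (196 and 319 CPM), and Map2 in the dentate layer (183 and 266 CPM) overlapped with Map2 in neocortex and in thalamus. Shank1 in the CA layers (74.2 and 92.1 CPM) overlapped with Shank1 in neocortex and in thalamus, which did not overlap with each other. Within each mouse Map2 was nonetheless higher in the dentate layer than in thalamus, and Shank1 higher in the CA layers than in thalamus. For Dlg4 all classes apart from white matter (17.9 and 29.0 CPM) overlapped, although neuropil held the highest value of each mouse. For Bc1 mouse 2 lay above mouse 1 in every class, and every class of mouse 2 lay above every class of mouse 1.

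To compare detection at equal depth, spots were thinned to 2000 UMIs each, which left out at most 3 spots of a class named here other than thalamus and 4 of thalamus. Ddn was then seen in 53.0% and 61.1% of neuropil spots, 33.3% and 48.0% of cell layer spots, 15.6% and 19.8% of neocortex spots and 1.98% and 3.71% of thalamus spots. Before thinning these shares were 82.4% and 96.3%, 75.6% and 97.5%, 43.4% and 71.9%, and 8.85% and 27.9%. Psd was seen after thinning in 45.0% and 49.1% of neuropil spots and 4.53% and 6.59% of thalamus spots. Map2 was spread more evenly, at 49.2% and 48.9% in neuropil, 40.2% and 50.5% in the cell layers and 27.5% and 29.6% in thalamus.

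The transcripts also differed in where within the neuropil they lay. Neuropil spots were split at 1.5 spot pitches from the nearest cell layer spot, which gave 216 near spots in mouse 1 and 192 in mouse 2. Far spots numbered 178 and 157 up to 6 pitches, and the fit also held the 9 and 1 spots at the cortical surface. Only 2.21% of 10235 genes differed between far and near spots (edgeR, adjusted p under 0.05), 0.918% being lower and 1.29% higher in far spots. Map2 was lower in far neuropil and Bc1 was higher, and the other 5 did not pass.

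Map2 had 443 CPM in near neuropil of mouse 1 and 549 CPM in mouse 2. Its share was 326 and 308 CPM at 1.5 to 2.5 pitches and 123 and 185 CPM at 2.5 to 3.5 pitches. In the cell layers themselves it was 239 and 311 CPM, so that the highest level lay just outside the layer in both mice. Far spots lay below near spots by 0.75 in mouse 1 and 0.99 in mouse 2, and the fitted log2 difference was -0.89 ± 0.08 (edgeR adjusted p = 5.97e-27). Per spot the difference was -1.08 ± 0.10 (adjusted p = 6.66e-22), where 6.02% of genes were lower in far spots. Without the mouse as a block it was -0.86 and did not pass (adjusted p = 0.145), whereas the 12 other alternatives kept the call, at -0.76 to -1.41.

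The gradient was steeper beside the dentate layer. Where the nearest layer was the dentate, Map2 went from 572 and 736 CPM within 1.5 pitches to 279 and 310 CPM and then to 57.4 and 118 CPM, the last from 7 and 24 UMIs. On the CA side the steps were 386 and 442, then 367 and 305, then 186 and 251 CPM. A fit of both sides, added after the data were seen, gave -1.51 ± 0.12 on the dentate side (edgeR adjusted p = 6.95e-20, with 1.09% of 9181 genes called and 0.86% lower) and -0.42 ± 0.12 on the CA side (adjusted p = 0.0912, with 0.381% called, 0.283% higher and 0.098% lower). The difference between the sides, CA minus dentate, was 1.09 ± 0.17 (edgeR adjusted p = 3.23e-05), where 0.327% of genes were called, 0.294% with a positive and 0.0327% with a negative difference. Bc1 was called on the CA side (0.51 ± 0.11, adjusted p = 0.00344) and not on the dentate side (0.29 ± 0.12, adjusted p = 0.415), and for Bc1 the difference between the sides did not pass (0.21 ± 0.16, adjusted p = 0.875).

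Bc1 ran in the opposite direction. Its share was 149 CPM in the cell layers of mouse 1, 208 in near neuropil, 247 at 1.5 to 2.5 pitches and 279 at 2.5 to 3.5 pitches, and 638, 1040, 1240 and 1600 CPM in mouse 2. Each step was upward in both mice with the sides pooled, and far exceeded near neuropil by 0.38 ± 0.07 (edgeR adjusted p = 1.77e-06). By side the steps in mouse 1 were uneven. Bc1 went from 304 to 263 CPM between the outer bins of the CA side and from 197 to 181 CPM between the inner bins of the dentate side, whereas in mouse 2 all steps were upward. The call was lost in 6 of 13 alternatives. Per spot the difference was 0.18 ± 0.09 (adjusted p = 0.224), in thinned spots 0.35 (adjusted p = 0.0669), with neuropil by position 0.16 (adjusted p = 0.449) and without the mouse as a block 0.38 (adjusted p = 0.968). With sections clustered alone and at Leiden resolution 2 it was -0.18 and -0.11 and did not pass.

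The remaining 5 did not pass. Camk2a had 490 and 511 CPM in near spots and 456 and 527 CPM in far ones up to 6 pitches, a log2 difference of 0.00 with a 95% interval from -0.13 to 0.14. Ddn differed by 0.11 (interval -0.03 to 0.25), Psd by -0.05 (-0.21 to 0.10), Shank1 by 0.18 (-0.07 to 0.42) and Dlg4 by 0.01 (-0.30 to 0.33). With neuropil defined by position Camk2a (-0.55) and Psd (-0.62) were lower in far spots, and with each section clustered alone Psd was (-0.44). Shank1 lay lower in near neuropil of the dentate side, at 77.7 and 61.2 CPM, than on the CA side, at 128 and 126 CPM. Of the other dendritic transcripts 4 of 20 were lower in far neuropil, among them Map1a, a further microtubule-associated protein (-0.68 ± 0.09, adjusted p = 1.78e-10), and Nrgn (-0.49 ± 0.06, adjusted p = 8.6e-16), and none was higher.

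Some markers of other cell types and of blood changed along the same axis. Aqp4 was higher in far neuropil (0.72 ± 0.11, adjusted p = 5.52e-09), as was haemoglobin Hbb-bs (0.87 ± 0.05, adjusted p = 5.4e-56), and Sst, a marker of inhibitory interneurons, was lower (-1.03 ± 0.08, adjusted p = 7.79e-39). For the endothelial and blood markers, which include Hbb-bs, no count is given here. Of the 10 astrocyte markers only 2 were higher, and of the 6 inhibitory markers only 2 were lower. Their part in the Map2 and Bc1 slopes was not tested. Leaving out the spots at the cortical surface gave -0.88 for Map2 and 0.37 for Bc1.

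**Figure D4:**
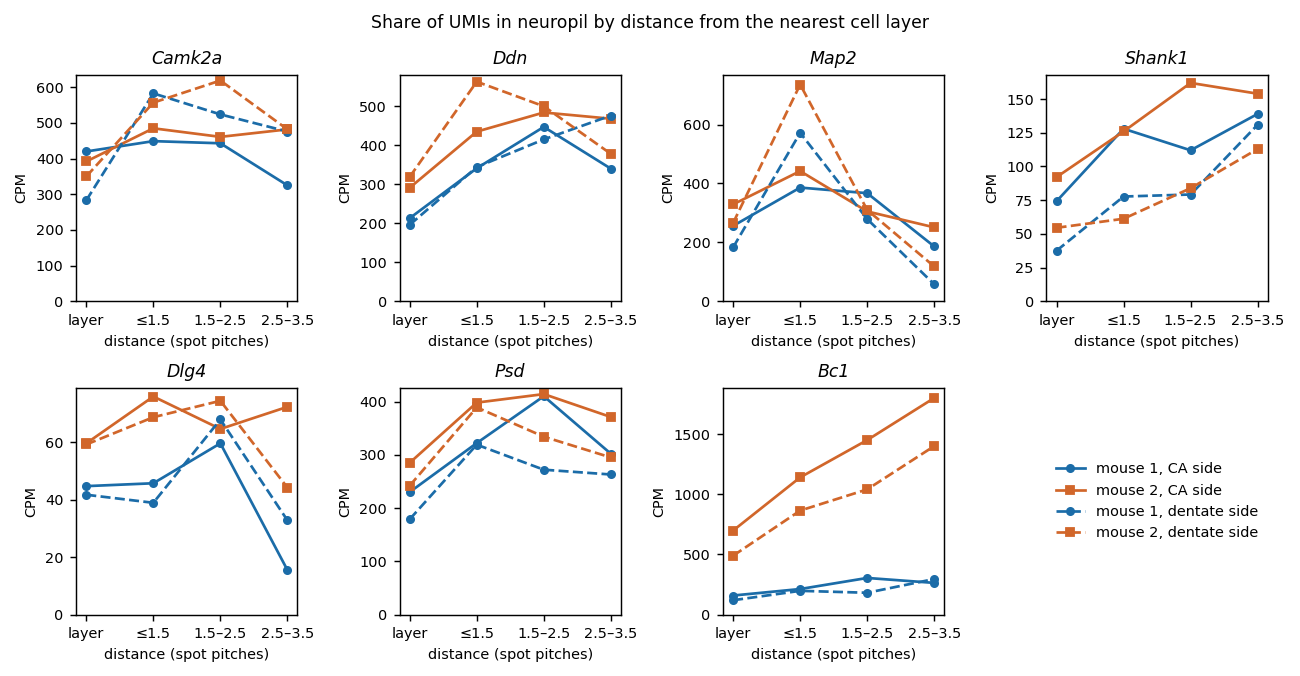
Share of UMIs (CPM, linear axes from 0) in the cell layer and in neuropil at 3 distances from it in spot pitches, with the CA side as solid and the dentate side as dashed lines, 1 colour per mouse. Map2 peaks within 1.5 pitches and falls below its cell layer level at 2.5 to 3.5 pitches, and Bc1 is lowest in the cell layer.

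The left and right neuropil of the images were compared because the series' design text speaks of an ipsilateral side, although it does not say which image side that is. No member passed the test, and 0.0875% of 10291 genes did, 0.0486% being higher on the left and 0.0389% lower. The 7 log2 differences, left minus right, ran from 0.07 (Psd) to 0.38 (Dlg4), with edgeR adjusted p from 0.934 to 0.998. At an unadjusted p under 0.05 there were 4 members, Ddn, Map2, Shank1 and Dlg4, all higher on the left, where 5.11% of all genes had such a p and 2.71% were also higher on the left. DESeq2 called none of the 7. Camk2a had 519 and 512 CPM on the left and 432 and 522 CPM on the right.

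Over all 19 clusters of the sections, 6 of the 7 transcripts had their highest share, by the mean of the mice, in the neuropil cluster. For 5 of them this held in each mouse. Dlg4 in mouse 1 was highest in the hypothalamic Penk-Hap1 cluster, at 52.5 CPM against 48.1 CPM in neuropil. The share of all genes that were highest in the neuropil cluster is not given here, so these counts are a description only. Ddn varied most, 139-fold in mouse 1 and 54-fold in mouse 2 between the highest and lowest cluster, followed by Psd at 26.9-fold and 23.5-fold and Camk2a at 16.2-fold and 14.9-fold. Dlg4 varied least, by 3.7-fold and 3.06-fold. Bc1 was the exception. Its highest clusters were those of the hypothalamus led by Penk and Hap1, at 1030 and 2700 CPM, and by Hcrt and Pmch, at 849 and 2700 CPM, and its lowest by the mean of the mice was the dentate granule layer, at 119 and 489 CPM. In mouse 1 the choroid plexus cluster was lower still, at 92.2 CPM.

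**Figure D5:**
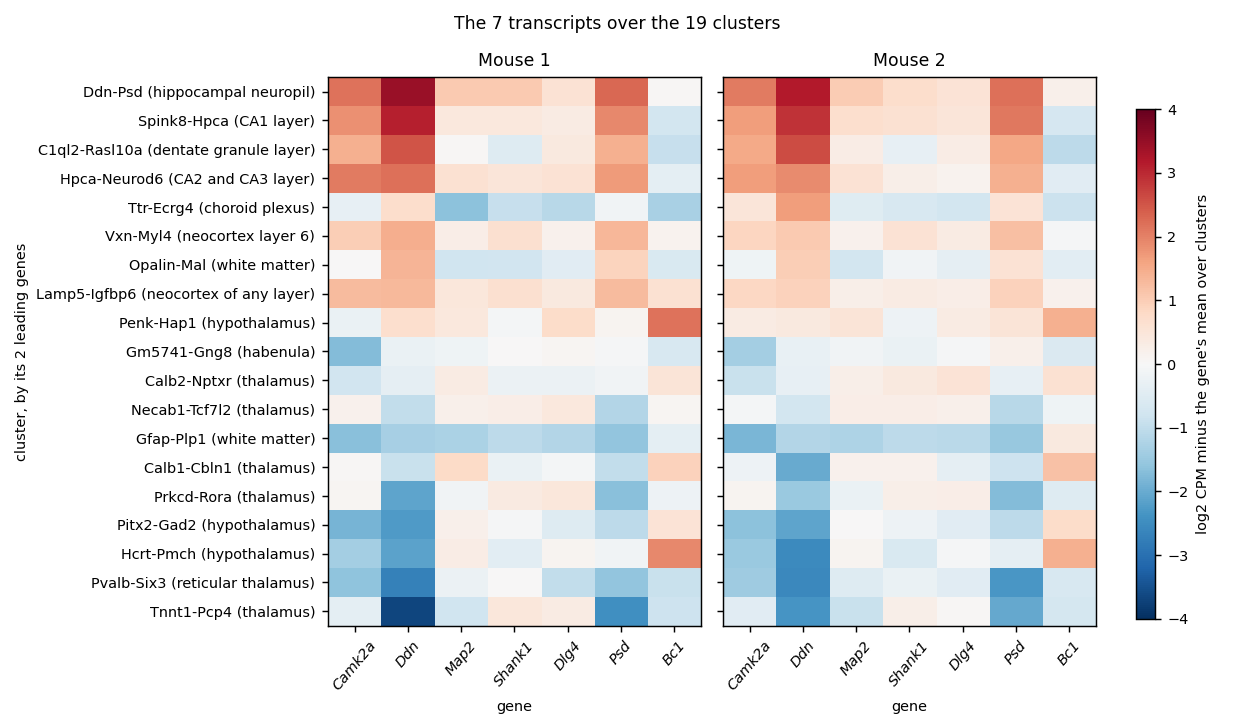
Share of each transcript in the 19 clusters, as log2 CPM minus the gene's mean over clusters, for each mouse, with clusters sorted by Ddn. Camk2a, Ddn and Psd are highest in the hippocampal clusters at the top, Dlg4 varies least, and Bc1 is highest in 2 hypothalamic clusters.

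Likeness between profiles was measured as the Pearson correlation of log2(CPM + 10) over the 19 clusters in each mouse, which share library and depth, and it is given as a description. Ddn and Psd ran most alike (r = 0.95 in mouse 1 and 0.93 in mouse 2), followed by Camk2a and Ddn (0.84 and 0.87). Camk2a and Psd gave 0.79 and 0.81, and Shank1 and Dlg4 gave 0.69 and 0.78. Ddn and Bc1 gave -0.17 and -0.38. Among 4694 genes with at least 1000 UMIs in each section, the closest to Ddn was 2010300C02Rik (0.95, the lower of the 2 mice), then Itpka (0.94), Psd (0.93), Icam5 (0.92) and Agap2 (0.91). Those closest to Psd were Ddn (0.93), 2010300C02Rik, Itpka, Agap2 and Gabra5 (0.91).

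The closest profiles to Camk2a were those of Cnksr2 (0.95), Ppp3ca, Ptk2b, Chn1 and Mmd (0.91). For the more even transcripts the best matches were weaker, with Spryd3, Rtn1, Dok6, Jph3 and Grm5 for Map2 (0.77 to 0.78), Gnb5, Ndrg3, Mapk10, Ppp3cb and Psd3 for Shank1 (0.77 to 0.79) and Zfr, Ssx2ip, Akap11 and Cnrip1 for Dlg4 (0.75 to 0.79). Bc1 ran with Lrrc17 (0.94), Tmem91 (0.84), Gap43 (0.82), Tatdn1 (0.80) and Nap1l5 (0.76).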

How the data were processed

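The files deposited by the authors hold UMI counts as whole numbers, one value for each gene in each spot. Space Ranger 1.3.1 wrote them per the file headers, and the genome build was mm10 per the submitters' processing notes. Members, lists, comparisons and alternatives were chosen with earlier results of these data known.

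Spots of at least 500 UMIs were kept, scaled to 10000 UMIs, logged and z-scored within each section (limit 10 SD). Clusters came from 2000 variable genes, 30 principal components, 15 neighbours and Leiden resolution 1 (scanpy 1.11.5, Python 3.11.15), without the 80 genes of the members and related lists. Each cluster was named by whichever of 18 marker sets had most of its genes, and at least 3, in the cluster's top 100 (fold over the other spots after adding 20 CPM). Image sides were set by the mirror line under which cluster labels matched best.

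UMIs were summed per mouse and region, and spots were not treated as replicates. The 6 region classes gave 12 libraries and 5 residual degrees of freedom in edgeR 4.0.16 (R 4.3.3; quasi-likelihood test, TMM, filterByExpr), with Benjamini-Hochberg adjustment over all genes. The mouse was a block because all regions of a section come from the same animal. The near-far and left-right fits had 4 libraries and 1 residual degree of freedom, so their errors rest on the spread pooled over genes. The other fits lean on it too. Its weight, in prior degrees of freedom, was 48.4 for the 6 region classes and 138 for the fit by nearest layer. The SEs are therefore not a gene's own spread between the mice. An SE is the size of the log2 value divided by the square root of the F statistic. TMM places the median gene near 0. With library totals alone it lay at -0.14 for cell layers and -0.22 for thalamus, so fitted values exceed plain CPM ratios. For cell layers the fitted values also weigh CA and dentate layers equally, whereas CPM values pool all their spots. For UMIs per spot, spot numbers took the place of library sizes. In data simulated for neuropil against cell layers the fit recovered 97% of genes changed by 1 log2 unit and 34% of those changed by 0.5. These rates cover the changed genes of the simulation together and are not those of a single transcript such as Dlg4 or Bc1. The simulated spread was fixed for all genes and larger than the common dispersion of the fit (0.00287). Both mice were drawn from the same mean profile, so the rates need not hold for these data.

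In each comparison every member was reported, and from each list up to 3 genes past the threshold with the greatest change and one direction in both mice were eligible to be named. Up to 5 most alike profiles per member were named, by the lower correlation of the mice, and 1 such profile is not reported here. Of 18 transport factors 17 were tested and of 15 paralogs 14. The RefSeq promoter table held 4 of the 7 members. DESeq2 1.42.0 was an alternative.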

Additional observations from a re-analysis of the deposited data

Results flagged for a closer look

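For Map2 the log2 difference between far and near neuropil was higher by 1.09 ± 0.17 on the CA side than on the dentate side (edgeR adjusted p = 3.23e-05). The difference between the sides was tested as an interaction over 8 libraries with 3 residual degrees of freedom, where 0.327% of 9181 genes passed. With 138 prior degrees of freedom, its SE rests mostly on the spread pooled over genes. The split by nearest layer was chosen after the data were seen. Of the other 6 transcripts none passed this test, with adjusted p from 0.403 (Psd) to 0.976 (Camk2a).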

How the results depend on the processing

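Fitted values of the 7 transcripts under the alternatives kept direction and side of the threshold in 633 cases, lost their call in 57, gained one in 5 and changed sign in 59. Most sign changes came with counts per spot, where the median gene lay at -0.92 against cell layers. There 0 members were higher and 2 lower against cell layers (Camk2a -0.33, Ddn -0.04, Map2 -0.16, Dlg4 -0.58, Psd -0.20), 0 and 2 against CA layers (Camk2a -0.47, Map2 -0.31, Shank1 -0.35, Dlg4 -0.57, Psd -0.31, Bc1 -0.11) and 0 and 1 against the dentate layer (Camk2a -0.19, Ddn -0.09, Map2 -0.01, Dlg4 -0.59, Psd -0.09). Against neocortex 3 were higher and 1 lower (Shank1 -0.09, Dlg4 -0.17), against thalamus 4 and 2 (Shank1 -0.30, Dlg4 -0.57, Bc1 -0.49), and for neocortex against thalamus 3 and 1 (Shank1 -0.21, Dlg4 -0.40). For far against near neuropil per spot 0 were higher (Camk2a -0.22, Ddn -0.08, Shank1 -0.04, Dlg4 -0.17), and for left against right Camk2a was -0.03, Psd -0.13 and Bc1 -0.03.

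Without the mouse as a replicate block Bc1 was 0.08 against neocortex, and far against near neuropil gave 0 members higher and 0 lower, with Camk2a at -0.01. Calls of Dlg4 and Bc1 were the ones most often lost without the block. In the pairwise fit Bc1 against neocortex was 0.00. Against CA layers 4 members were higher in thinned spots, 4 with sections clustered alone and 3 with neuropil by position. Of all genes tested 435 of 10223, 1654 of 13757 and 2104 of 13368 were higher in these settings. For far against near neuropil 0 members were higher in thinned spots (Camk2a -0.02, Shank1 -0.01, Dlg4 -0.15, Psd 0.17). Sections clustered alone gave 0 higher and 2 lower (Camk2a -0.22, Ddn -0.27, Shank1 -0.41, Dlg4 -0.05, Bc1 -0.18), Leiden resolution 2 gave 0 higher (Ddn -0.09, Shank1 -0.08, Bc1 -0.11) and position gave 0 higher and 3 lower (Camk2a -0.55, Ddn -0.31, Dlg4 -0.06). With sections clustered alone 83 of all 8873 genes were higher and 124 lower, and by position 46 of 9225 were higher and 136 lower. In thinned spots 44 of 5376 genes were higher, and at Leiden resolution 2 it was 16 of 7643. Near 0 the sign also turned with library totals alone or no filter (Camk2a -0.02, Dlg4 -0.01 in both), with DESeq2 (Camk2a -0.01), and with spots of at least 2000 UMIs or surface spots left out (Dlg4 -0.01 in both). For left against right it turned with sections clustered alone (Camk2a -0.01, Psd -0.00), Leiden resolution 2 (Psd -0.02) and position (Psd -0.03). The cause was not tested. Leaving out the surface spots, and counting a Ddn-led CA cluster at Leiden resolution 2 as neuropil, were alternatives chosen after seeing the data.

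A single mouse leaves no residual degrees of freedom, so leaving 1 out gives values without a test. Against cell layers these ran from 0.26 to 0.41 for Dlg4 and from 0.86 to 1.16 for Bc1. Over all genes the calls against cell layers (3765) went to 843 in thinned spots, 9261 per spot and 2569 without the block, those against CA layers (3451) to 760, 8884 and 2163, and those against the dentate layer (3286) to 657 and 7789, and to 1310 with regions by marker share. Against neocortex 3502 went to 1213, 6542 and 2093, against thalamus 5999 to 3052 and 10983, and for neocortex against thalamus 6538 to 3275. Far against near, 226 went to 52 with DESeq2, 27 at Leiden resolution 2, 664 per spot, 5 without the block and 60 in thinned spots. Left against right, 9 went to 2 with DESeq2, without the block and in thinned spots, and to 16 per spot.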
